A study of Mus musculus with 15 samples.

Results

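The genes described here are 6 that mark red blood cells and the hemoglobin they carry, namely Hba-a1, Hbb-b1, Hbb-b2, Alas2, Slc4a1 and Bpgm, measured in RNA from whole mouse hearts. Probes were taken as members where their RefSeq accession maps to one of these symbols or to an older name of it, and this found 9 probes for 5 of the 6 genes, out of 41174 non-control probes and 18350 genes with a symbol. No probe matched Hbb-b2, which was not analysed here. The hearts came from 15 C57BL/6 mice that were 8 to 10 weeks old at the start. Methamphetamine (meth), a stimulant drug, was dissolved in phosphate-buffered saline (PBS) and injected into the abdomen each week for 20 weeks, in steps of 2 mg up to 40 mg/kg. Control mice received PBS alone on the same schedule. The 15 arrays, with 1 mouse to an array, held 4 male meth, 4 male PBS, 4 female meth and 3 female PBS hearts after 5 months. Males came from 2 trials, and both male groups took 2 mice from either trial. Female mice were placed in trial 1 by their titles, although another label field put female meth replicates 3 and 4 and female PBS replicate 3 in trial 2.

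A red cell is packed with hemoglobin, a tetramer of alpha and beta globin chains that each hold a heme group and bind oxygen. Heme synthesis in the red cell lineage starts with Alas2, while other tissues use the related enzyme Alas1. Mature mouse red cells have no nucleus, and the youngest cells in the blood, the reticulocytes, still carry globin and other red cell messenger RNA. Heart muscle stores oxygen with a different globin, myoglobin (Mb), which it makes itself. In bulk RNA of this kind, more cells of a type and more RNA per cell cannot be told apart. The sources used here describe excised, snap-frozen hearts and mention perfusion with PBS for the hearts used in histology.

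Promoter sequences of the members are shown because these genes varied together between hearts and the red cell program is known to act through GATA, CACCC and CCAAT boxes. RefSeq promoters of GRCm38.p6 were found for 4 of the members, with the beta globin entry under its current symbol Hbb-bt, and each run below is the 250 bases before the annotated start, 5′ to 3′ on the gene's strand. Capitals mark the GATA box GATAA, the CACCC box and the CCAAT box, each on either strand and read in reverse complement on the opposite one, together with the motif TATAA on the gene's strand between 40 and 20 bases before the start. The windows lie at chr11:32283422-32283671 (+) for Hba-a1, chr7:103813924-103814173 (-) for Hbb-bt, chrX:150547167-150547416 (+) for Alas2 and chr6:34476106-34476355 (+) for Bpgm.
Hba-a1: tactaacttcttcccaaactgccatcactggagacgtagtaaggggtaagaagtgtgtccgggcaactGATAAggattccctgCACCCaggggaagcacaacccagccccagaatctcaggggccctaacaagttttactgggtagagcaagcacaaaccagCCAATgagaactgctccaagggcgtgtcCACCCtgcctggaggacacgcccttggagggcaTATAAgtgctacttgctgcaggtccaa
Hbb-bt: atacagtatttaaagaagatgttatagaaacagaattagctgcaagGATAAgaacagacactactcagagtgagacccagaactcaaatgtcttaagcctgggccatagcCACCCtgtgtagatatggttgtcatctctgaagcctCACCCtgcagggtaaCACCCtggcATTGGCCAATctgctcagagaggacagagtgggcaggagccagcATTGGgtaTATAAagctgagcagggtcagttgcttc
Alas2: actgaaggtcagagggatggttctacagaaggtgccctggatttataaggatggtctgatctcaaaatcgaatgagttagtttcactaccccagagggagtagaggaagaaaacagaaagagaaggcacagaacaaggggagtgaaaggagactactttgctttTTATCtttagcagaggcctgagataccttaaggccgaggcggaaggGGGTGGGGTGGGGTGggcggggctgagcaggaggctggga
Bpgm: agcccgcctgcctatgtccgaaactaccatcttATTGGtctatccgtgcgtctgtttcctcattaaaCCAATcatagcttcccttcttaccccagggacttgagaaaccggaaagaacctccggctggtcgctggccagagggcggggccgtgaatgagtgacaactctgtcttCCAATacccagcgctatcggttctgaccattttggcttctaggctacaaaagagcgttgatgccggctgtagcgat

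Hba-a1 and Hbb-bt each held all 4 kinds of box, with 1 GATAA each, 2 and 3 CACCC, and 1 and 3 CCAAT. Their TATAA lay 27 to 23 and 28 to 24 bases before the start. Alas2 held 1 GATAA at 86 to 82 bases before the start and 3 adjoining CACCC boxes, and Bpgm held 3 CCAAT and none of the other 3 motifs in its window. Over all 32851 promoters of the same length, 22.6% held GATAA, 52% held CACCC, 33.8% held CCAAT and 3.31% held TATAA in that interval, and 3.45% held each of the first 3. These matches are letters in a window and were not tested as binding sites.

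All 9 member probes were well above background on all 15 arrays. The values of the 5 globin probes came from the low-gain scan on all 15 arrays, with no saturated spot. Alpha globin is encoded by near-identical copies, Hba-a1 and Hba-a2, and the beta genes are close paralogs, so the globin probes may bind more than 1 copy and a level cannot be assigned to a single gene. The 4 Hbb-b1 probes carry a RefSeq record named Hbb-b1 in older annotation and Hbb-bt in the current one. Values below are log2 signals with the 75th percentile of each array set to 0. They come from the brightest probe of each gene unless another is named, and a log2 difference of 1 is a doubling.

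Alpha globin, Hba-a1, pairs with beta globin in adult hemoglobin. In male PBS hearts its log2 signal was 8.24 and 7.99 in trial 1 and 8.05 and 8.26 in trial 2, and in male meth hearts it was 8.75 and 9.49 in trial 1 and 7.85 and 8.18 in trial 2. In females it was 7.87, 8.26 and 7.93 after PBS and 8.79, 8.09, 8.40 and 9.22 after meth. Both trial 1 meth males and 3 of the 4 meth females lay above every PBS heart of their sex, while the trial 2 meth males lay within or below the range of the PBS males.

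Beta globin, Hbb-b1, had log2 signals of 8.83 and 8.65 (trial 1) and 8.59 and 8.77 (trial 2) in male PBS hearts, beside 9.18 and 9.66 and then 8.32 and 8.69 in male meth hearts. Female PBS hearts read 8.54, 8.91 and 8.54, and female meth hearts 9.38, 8.76, 8.99 and 9.61. The groups overlapped in both sexes, and male meth trial 1 replicate 2 was again the highest array. This array was the highest of the 15 for all 9 member probes.

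Alas2, the enzyme of the first step of heme synthesis in red cell precursors, covered a wide range in the meth males. Its log2 signal was 2.84, 2.66, 3.02 and 3.10 in male PBS hearts, and 3.64, 4.70, 2.70 and 3.04 in male meth hearts, with trial 1 first. Female PBS hearts gave 2.57, 3.28 and 2.84 and female meth hearts 3.70, 2.93, 3.29 and 3.98. In each sex the lowest meth heart lay below the highest PBS heart.

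Slc4a1 encodes band 3, the anion exchanger of the red cell membrane. Its log2 signal was -2.09, -2.30, -1.99 and -2.25 in male PBS hearts and -1.55, -0.38, -2.59 and -2.26 in male meth hearts. In females it was -2.92, -2.28 and -2.38 after PBS and -0.995, -1.90, -1.89 and -1.13 after meth. The 4 female meth hearts all lay above the 3 female PBS hearts, and no other member probe separated the female groups.

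Bpgm makes 2,3-bisphosphoglycerate, which lowers the oxygen affinity of hemoglobin. It read 1.71, 1.62, 1.89 and 1.49 in male PBS hearts, 2.13, 2.81, 1.56 and 1.55 in male meth hearts, 1.52, 1.82 and 1.34 in female PBS hearts and 2.07, 1.75, 1.59 and 1.90 in female meth hearts. The 4 highest values belonged to the trial 1 meth males and to female meth replicates 1 and 4, and the groups overlapped in both sexes.

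**Figure D1:**
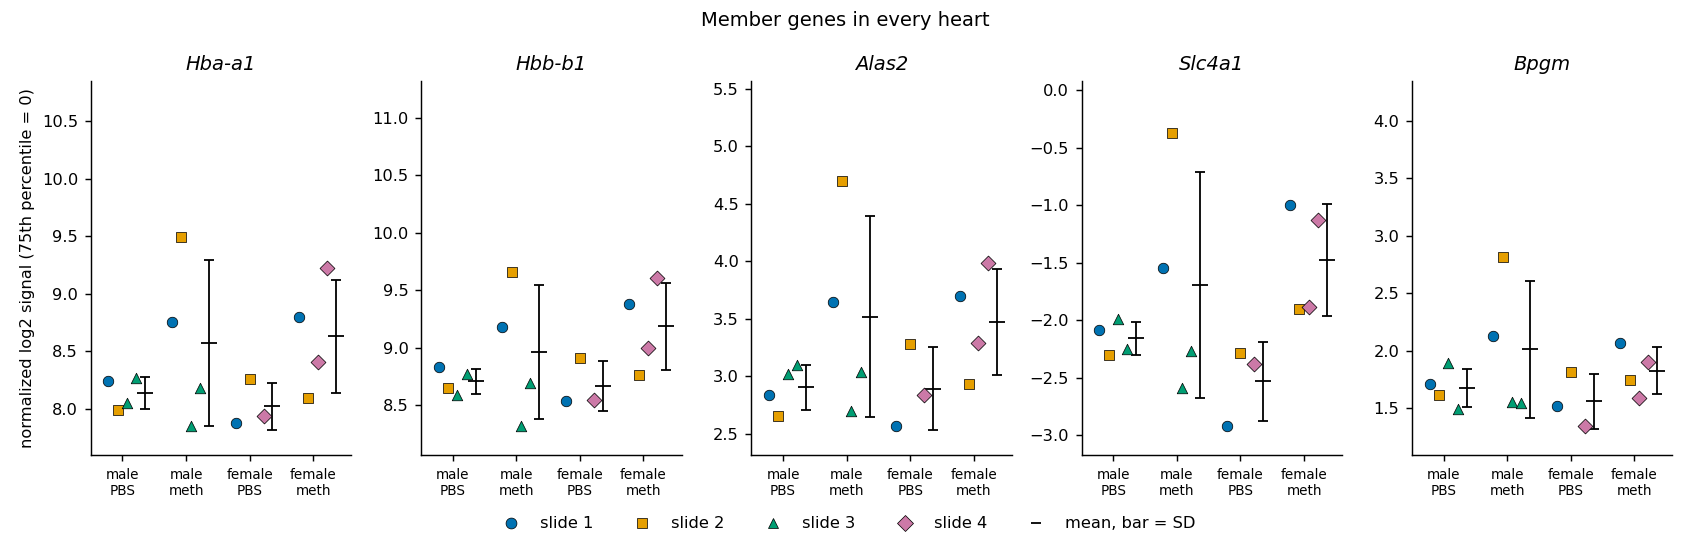
Normalized log2 signal (75th percentile of each array at 0) of the main probe of 5 member genes in each of the 15 hearts, by sex and treatment, with point shape and colour for the slide and the mean with SD beside each group; the panels span equal log2 ranges. The male meth heart of slide 2 is the highest array in every panel, at 9.49 for Hba-a1 and 4.70 for Alas2, while the slide 3 meth males lie near the PBS males.

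The spread between hearts was widest in the male meth group for the main probe of each gene. Over the main probes of the 5 genes the SD of the log2 signal was 0.58 to 0.98 in male meth hearts (n = 4), 0.21 to 0.49 in female meth hearts (n = 4), 0.21 to 0.36 in female PBS hearts (n = 3) and 0.11 to 0.20 in male PBS hearts (n = 4). Hbb-b1 probe A_52_P213909 was wider in female meth (SD 0.86) than in male meth hearts (SD 0.77), while the remaining probes were widest in male meth hearts. For every gene the order of the group means put both meth groups above both PBS groups, and male PBS above female PBS. The gap between neighbours in this order was smaller than the larger of their SDs in all but 2 cases, namely Alas2 between female meth (3.48 ± 0.46) and male PBS (2.905 ± 0.20), and Slc4a1 between male PBS (-2.16 ± 0.14) and female PBS (-2.53 ± 0.34).

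Male hearts were compared first, since the study asked whether males respond to meth more than females. All 9 member probes had a higher mean in meth than in PBS males, by a log2 difference of 0.25 for Hbb-b1 (SE 0.22, 1.19-fold), 0.34 for Bpgm (SE 0.21), 0.43 for Hba-a1 (SE 0.28, 1.35-fold), 0.46 for Slc4a1 (SE 0.35) and 0.61 for Alas2 (SE 0.34, 1.53-fold). None passed the test, with limma adjusted p from 0.49 to 0.83 over the 9 probes, where 1.11% of all 28367 probes tested passed. No member probe had an unadjusted p under 0.05, beside 12.8% of all probes, and none separated the groups, beside 4.67% of all probes with every meth male above every PBS male. The median difference was 0.34 over the 9 probes and -0.032 over all probes. The exact permutation tests of the 8 arrays gave p from 0.2 to 0.54, where the smallest possible is 0.0286. A single array carried much of these means. Without male meth trial 1 replicate 2 the male differences were 0.24 for Alas2, 0.17 for Hba-a1, 0.10 for Bpgm, 0.073 for Hbb-b1 and 0.073 for Slc4a1.

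The 2 male trials differed in direction. In trial 1 the meth hearts were above the PBS hearts for 9 of 9 probes, by log2 differences of 0.68 (Hbb-b1) to 1.42 (Alas2, 95% interval 0.60 to 2.24), and in trial 2 they were below for 9 of 9, by differences of -0.31 (Slc4a1) to -0.14 (Bpgm). By the limma fit with a group for each trial, 0 of 9 probes passed in trial 1 (adjusted p 0.22 to 0.85, where 0.300% of all probes passed), although 8 of 9 had an unadjusted p under 0.05, beside 7.29% of all probes. In trial 2, 0 of 9 passed where 0.356% of all probes did, and 0 of 9 had an unadjusted p under 0.05, beside 10.7%. The trial difference itself was -1.61 for Alas2 (SE 0.53), -1.54 for Slc4a1 (SE 0.56), -1.15 for Hba-a1 (SE 0.47), -0.94 for Bpgm (SE 0.33) and -0.85 for Hbb-b1 (SE 0.38). None of the 9 probes passed this test (adjusted p 0.97 to 1.0), and neither did any of the 28367 probes (0%), while 8 of 9 members had an unadjusted p under 0.05, beside 4.57% of all probes. The 9 probes share hearts and vary together, so they are not 9 separate observations. In the PBS males alone, trial 2 stood apart from trial 1 by -0.061 to 0.31 over the 5 main probes.

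**Figure D2:**
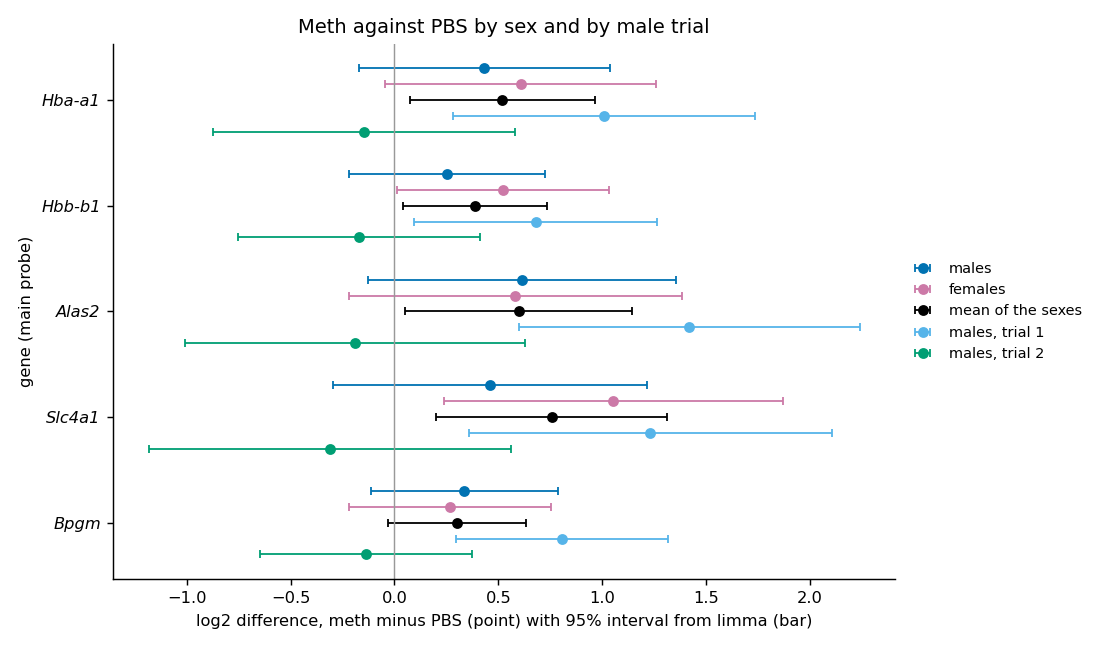
Log2 difference between meth and PBS hearts (points) with the 95% interval of the limma fit (bars) for the main probe of each member gene, in males, in females, as the mean of the sexes and in each male trial. The trial 1 males lie between 0.68 and 1.42 and the trial 2 males between -0.31 and -0.14, and the intervals of the males as a whole include 0.

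Female hearts gave higher means in meth than in PBS for 9 of 9 probes as well. The log2 difference was 1.05 for Slc4a1 (SE 0.38, 2.07-fold, 95% interval 0.24 to 1.87), 0.61 for Hba-a1 (SE 0.30, 1.52-fold), 0.58 for Alas2 (SE 0.37, 1.497-fold), 0.52 for Hbb-b1 (SE 0.23, 1.43-fold) and 0.27 for Bpgm (SE 0.22, 1.203-fold). None passed limma's test, with adjusted p from 0.28 for Slc4a1 to 0.89, where 0.758% of all probes passed. Unadjusted p was under 0.05 for 2 of 9 probes, those of Slc4a1 and Hbb-b1, beside 11.0% of all probes. Slc4a1 was the 1 member probe of 9 with all meth females above all PBS females, beside 3.14% of all probes, and its exact permutation p of 0.0286 is the smallest that 4 against 3 arrays allow. The exact p of the other probes ran from 0.114 to 0.69. Without the slide 4 arrays, the Hba-a1 difference was 0.38 and that of Slc4a1 1.15.

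Taken as the mean of the sexes, the response of the members to meth was 0.76 for Slc4a1 (SE 0.26, 1.69-fold), 0.60 for Alas2 (SE 0.25, 1.51-fold), 0.52 for Hba-a1 (SE 0.20, 1.43-fold), 0.39 for Hbb-b1 (SE 0.16, 1.31-fold) and 0.30 for Bpgm (SE 0.15, 1.23-fold) on the log2 scale. No member probe passed the limma test (adjusted p 0.16 to 0.75), where 2.64% of all probes passed. An unadjusted p under 0.05 was found for 4 of 9 probes, beside 15.3% of all probes. Differences were above 0 for 9 of 9 members and for 44.7% of all probes, with a median of 0.38 over the members and -0.015 over all probes. With the slide as a fixed block the values were 0.75, 0.58, 0.51, 0.38 and 0.32 in the same order, and none passed.

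Whether the sexes responded differently was asked by the interaction of sex and treatment. The male response minus the female response was -0.59 for Slc4a1 (95% interval -1.70 to 0.52), -0.27 for Hbb-b1 (-0.96 to 0.43), -0.18 for Hba-a1 (-1.07 to 0.71), 0.032 for Alas2 (-1.06 to 1.12) and 0.068 for Bpgm (-0.59 to 0.73). By limma, 0 of 9 probes passed (adjusted p 0.79 to 1.0), where 0.137% of all probes passed, and 0 of 9 had an unadjusted p under 0.05, beside 8.66% of all probes. These intervals are wide and include responses that differ by more than a factor of 2 in either direction for Alas2.

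In PBS hearts, no member was called different between the sexes. The plain difference of the means, male minus female, was 0.37 for Slc4a1, 0.12 for Hba-a1, 0.12 for Bpgm, 0.043 for Hbb-b1 and 0.011 for Alas2, with exact permutation p from 0.0571 (Slc4a1) to 0.914 (Alas2). In the fit, the estimates were 0.72, 0.38, 0.34, 0.29 and 0.26 in this order. The fit holds a trial term shared by PBS and meth males, so the trial difference among meth males also enters these estimates. Among PBS males alone, trial 2 minus trial 1 was 0.075 for Slc4a1, 0.043 for Hba-a1, 0.027 for Bpgm, -0.061 for Hbb-b1 and 0.31 for Alas2. With 1 array left out the fitted estimates, which hold the same term, ranged from 0.53 to 1.02 for Slc4a1 and 0.25 to 0.63 for Hba-a1. They ranged from 0.22 to 0.51 for Bpgm, 0.20 to 0.47 for Hbb-b1 and 0.073 to 0.56 for Alas2. The highest value of each came without male PBS trial 1 replicate 2, and the lowest came without male meth trial 1 replicate 2, or for Slc4a1 without female PBS replicate 1. By limma, 0 of 9 probes passed (adjusted p 0.43 to 0.79), where 0.462% of all probes passed, and 0 of 9 had an unadjusted p under 0.05, beside 15.2% of all probes.

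The 15 arrays lay on 4 slides scanned in 3 sessions, and each slide held both treatments, so the comparison was also made within slides. Slide 3 is trial 2 of the males, and slides 1 and 2 hold trial 1 males and the first 4 females. Within slide 1, meth was above PBS for 9 of 9 probes in males (0.35 to 0.80) and in females (0.42 to 1.93). Within slide 2 it was above for 9 of 9 in males (1.01 to 2.04) and for 1 of 9 in females (-0.35 to 0.38). On slide 3 it was above for 0 of 9 in males, and on slide 4 for 9 of 9 in females (0.35 to 0.88). The direction therefore held within 4 of the 6 sets of hearts that share a sex and a slide, and each set holds 2 to 4 hearts.

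**Figure D3:**
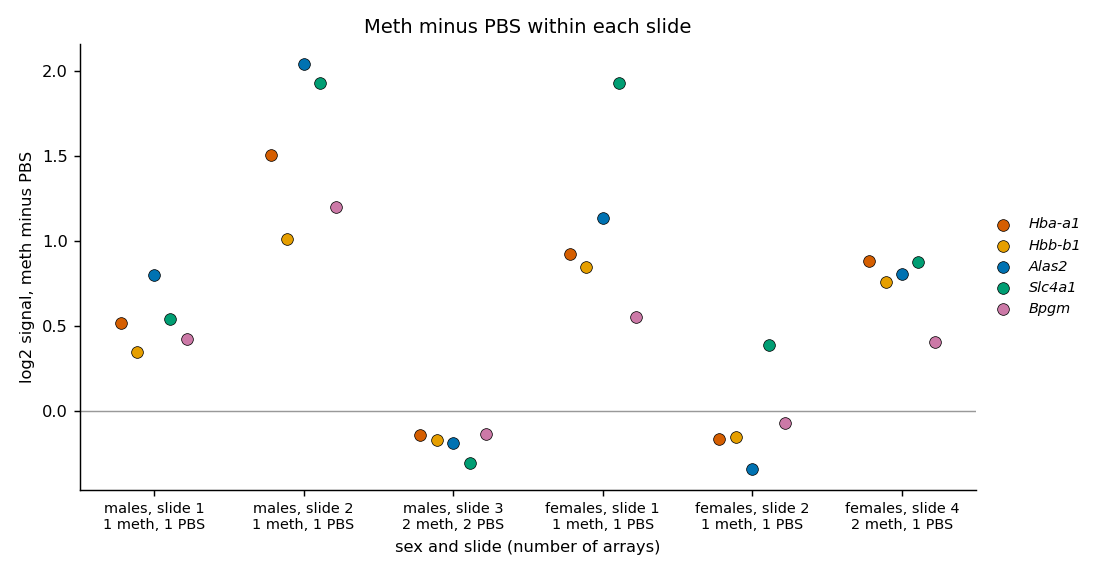
Meth minus PBS log2 signal of the main probe of each member gene within each combination of sex and slide, with the number of arrays under each column; there are no error bars because most columns compare single hearts. All 5 genes lie above 0 in 4 columns, all 5 lie below 0 for the slide 3 males, and Slc4a1 alone lies above 0 for the slide 2 females.

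The members varied together from heart to heart. Over the 15 arrays the 10 pairs of member genes had Pearson r from 0.78 (Hbb-b1 and Bpgm) to 0.98 (Hba-a1 and Hbb-b1) and Spearman rho from 0.68 to 0.98. The largest adjusted permutation p was 0.00038 for r and 0.0074 for rho, over 10 pairs. Alas2 followed Hba-a1 with r = 0.97 and Slc4a1 followed it with r = 0.94. Without the 2 arrays farthest from the median, r ran from 0.70 to 0.96 (n = 13). As deviations from the group means, pooled over the 4 groups, it ran from 0.82 to 0.99. The male meth hearts, which had the widest spread for these probes and come from 2 trials, weigh most in this value. An r within each group alone was not computed, so it does not show joint variation in every group. As deviations from the slide means r was 0.86 to 0.98, and within the session that holds 8 arrays it was 0.93 to 0.99. Quantile normalization gave 0.67 to 0.97.

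**Figure D4:**
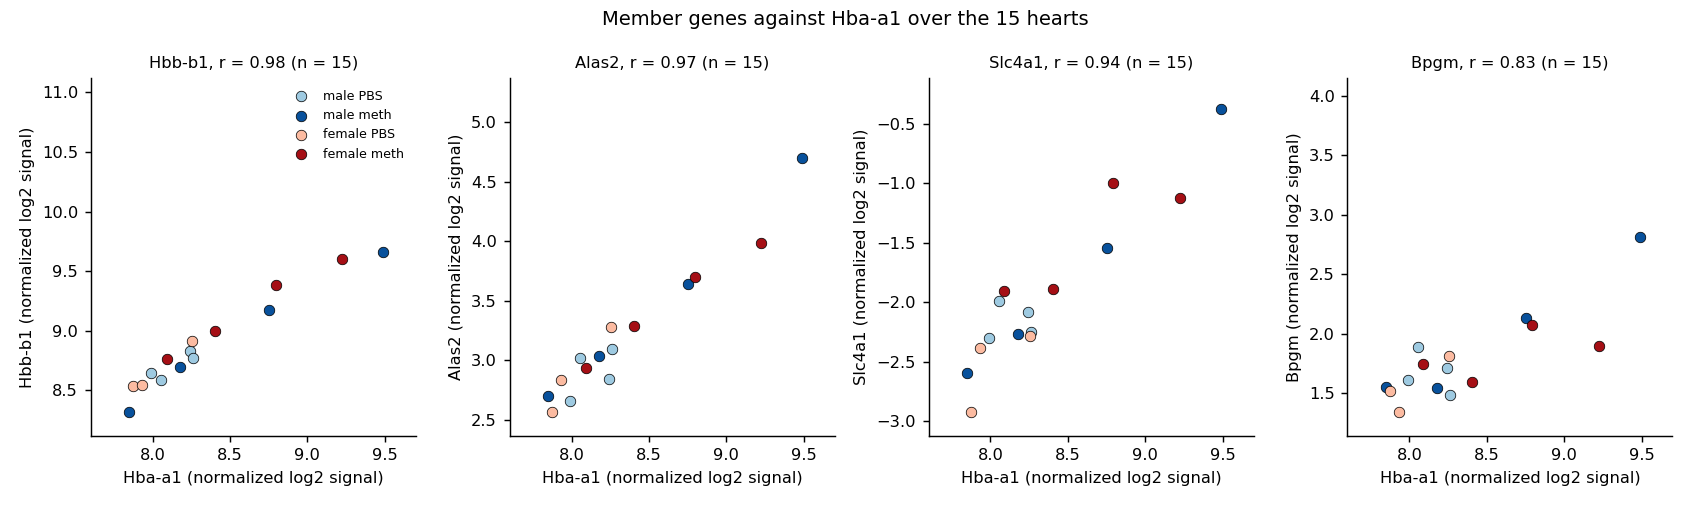
Normalized log2 signal of Hbb-b1, Alas2, Slc4a1 and Bpgm against Hba-a1 in the 15 hearts, coloured by sex and treatment, with Pearson r above each panel. The hearts form a continuous line from the male meth heart at 7.85 to the one at 9.49 on the Hba-a1 axis, with PBS hearts of both sexes in the lower part.

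Different probes of the same gene gave similar but not identical accounts. The brightest Hbb-b1 probe correlated with its other 3 probes at r = 0.77, 0.83 and 0.96, and the pair of Bpgm probes at 0.85. The lowest of these came from probe A_52_P213909 in female meth replicate 3, where it read 7.36, its lowest value on any array, while the main Hbb-b1 probe at 8.99 was above its own values in all 3 female PBS hearts. Without that array the r of this pair was 0.96.

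Genes outside the members were then ranked by their Pearson r with each member over the 15 hearts, with 14208 genes compared. Ube2l6 and Mkrn1 were among the 5 most alike for 4 of the 5 members, with r of 0.88 to 0.95 and 0.90 to 0.94, and Isg20 was for 3 (0.91 to 0.93). E2f2 and Clec1b were for 2 members each. Treml1, Car2, Hbq1a, Nfe2, Ctla2b, Gp1ba, Rec114, Tent5c and Trim10 were also named by this ranking, at r of 0.88 to 0.91 with the member concerned. For comparison, about 1% of all genes (0.978% for Alas2, 1.08% for Hbb-b1) had r above 0.7 with a member. These points share arrays and normalization, and the ranking is a description with no test.

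**Figure D5:**
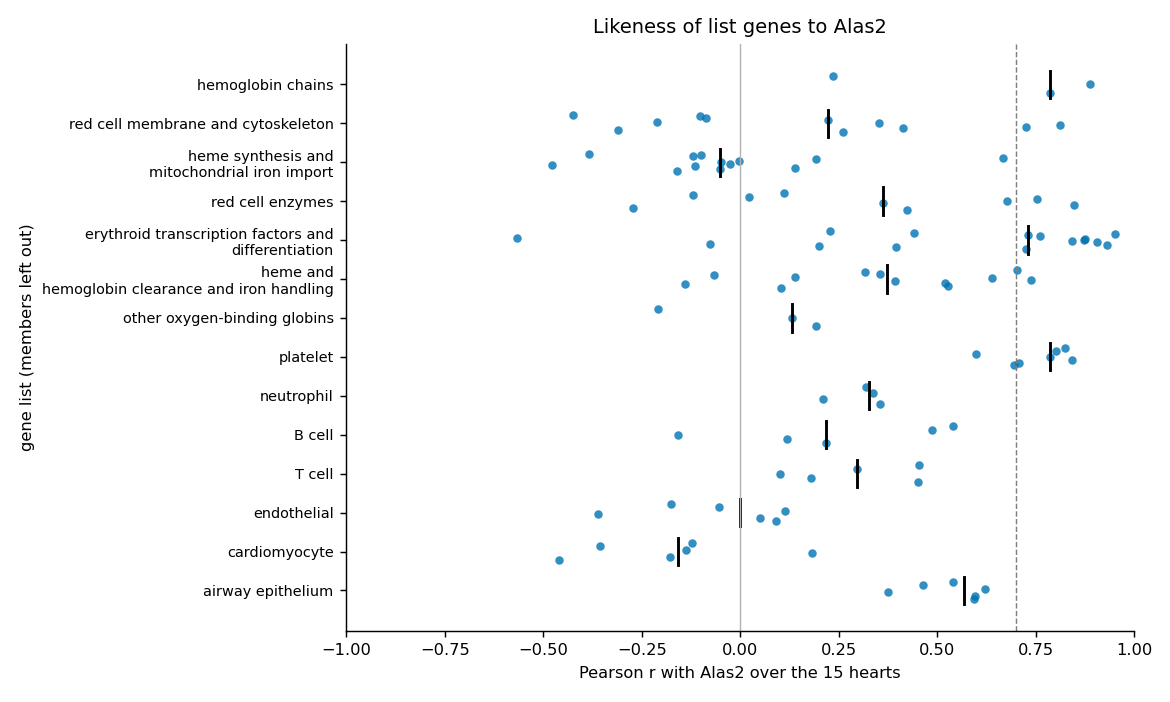
Pearson r with Alas2 over the 15 hearts for each tested gene (points) of 14 gene lists, members left out, with the median of each list as a black bar and a dashed line at 0.7. Hemoglobin chains other than the members (3 genes, median 0.79), platelet genes (0.78) and erythroid genes (0.73) have the highest medians, and heme synthesis and cardiomyocyte genes centre near 0, at -0.050 and -0.16.

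Lists of related red cell genes were set beside Alas2 in the same way, and r above 0.7 was counted. Among hemoglobin chains, Hbq1a (theta globin, r = 0.89) and the embryonic Hbb-y (r = 0.79) were above it, whereas Hbq1b had r = 0.23. Hbb-y, the brightest chain outside the members, had a response of 0.67 in males and 0.74 in females, which did not pass. Of the erythroid transcription factors and differentiation genes, 9 of the 15 tested had r above 0.7, including Ube2l6 at 0.95, Nfe2 (a red cell and platelet transcription factor) at 0.84 and Bnip3l (mitochondrial clearance in reticulocytes) at 0.73. Ube2o, the list's brightest gene, had r = 0.44. Klf1, Gfi1b, Hemgn and Cldn13 did not reach the detection limit for testing. Gata1 was well above background on 3 arrays only, female meth replicates 3 and 4 and female PBS replicate 3, which are the arrays of slide 4. Among red cell membrane genes, 2 of the 11 tested outside the members had r above 0.7, with a median r of 0.22 over the list. Epb41 was 1 of these, at r = 0.72, while Ank1, the brightest of that list, had r = -0.31. Among red cell enzymes, Car2 (carbonic anhydrase, 0.85) and Gpx1 (0.75) were above 0.7 out of 9, and the brightest, Prdx2, had r = 0.11.

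Heme synthesis and mitochondrial iron import gave a different picture. None of the 13 tested genes other than Alas2 had r above 0.7, with a median of -0.050, and Alas1, the brightest of them and the enzyme of the first step outside the red cell lineage, had r = -0.48. The mitochondrial iron importer Slc25a37, which is abundant in red cell precursors, came nearest at r = 0.67. Medians of the response of these 13 genes and Alas2 were -0.09 in males and 0.06 in females, and none passed. Myoglobin, the brightest of the 3 other oxygen-binding globins, had r = 0.13 and a mean response of 0.05, which did not pass.

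In the comparisons of meth with PBS, 2 of the 68 genes tested in the 6 red cell and iron lists passed, both in the mean of the sexes. That share, 2.94%, is near the 2.64% of all probes, so it is not a result about these lists, and both genes are given for their values. Hmox1, heme oxygenase, which breaks down heme, rose by 0.33 (SE 0.076, adjusted p = 0.043). It had r = 0.74 with Alas2, and its log2 signal was 0.12 to 0.32 in male PBS, 0.45 to 0.72 in male meth, 0.25 to 0.48 in female PBS and 0.51 to 0.95 in female meth hearts. Tfrc, the transferrin receptor that brings iron into cells, fell by 0.42 (SE 0.095, adjusted p = 0.038), with r = -0.57. Its log2 signal was 0.47 to 0.92 in male PBS, -0.26 to 0.70 in male meth, 0.08 to 0.23 in female PBS and -0.37 to -0.14 in female meth hearts. Hmox1 did not overlap between the treatments in either sex, and Tfrc did not in females. Every meth array lay above every PBS array for 4.67% of all probes in males and 3.14% in females. The share with every meth array below, the direction of Tfrc, was not counted. Both genes were picked by their call in these same arrays, so the lack of overlap is not separate support. Both calls lay close to the threshold, and 19 of 29 alternatives for Hmox1 and 17 of 29 for Tfrc ended them (adjusted p up to 0.69 and 0.17), with the direction kept in each. Neither gene passed within a sex. The haptoglobin gene Hp and the iron hormone Hamp had mean responses of 0.90 and 0.77 that did not pass, and the ferritin gene Fth1, the brightest of this list, had -0.06.

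Markers of other blood and tissue cells were read beside the members. Platelet genes followed them, with 5 of 7 above r = 0.7 to Alas2 and Pf4, the brightest, at 0.60. Their summed linear signal, in units of the 75th percentile, was 14.5 to 22.4 in male meth, 14.98 to 19.7 in male PBS, 17.2 to 24.0 in female meth and 17.4 to 19.7 in female PBS hearts, and no platelet gene passed in any comparison. The 4 tested neutrophil genes had r of 0.21 to 0.36 and responses below 0 in both sexes, and B cell, T cell and endothelial genes had medians of r of 0.22, 0.30 and -0.0015. All 6 cardiomyocyte markers were well above background on all arrays, with summed signals of 1777 to 2509. The 6 airway epithelium genes had a median r of 0.57 with Alas2, none above 0.7. Their summed signal was 0.52 to 0.62 in male PBS, 32.7 to 167 in male meth, 1.15 to 3.85 in female meth and 1.62 to 3.07 in female PBS hearts. All 6 had a response above 0 in males and 5 of them passed, where 1.11% of all probes passed. The highest airway sum was that of male meth trial 1 replicate 2, which was also the highest array for the members, and the part of such tissue in the members' values was not tested.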

How the data were processed

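RNA of 15 hearts was labelled with Cy3 and hybridised to Agilent Mouse 4x44K arrays of 1 colour. Per the file headers, the deposited intensity of each spot is a background-subtracted signal from Feature Extraction 10.5.1.1 that merges 2 scanner gains, while the submitters' processing notes give version 9.1. A processed table deposited by the authors holds log2 values that equal the log2 signal plus a constant for its array, and it served as an alternative.

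From the intensities, control spots were left out, outlier spots were set to missing, spots of a probe were averaged on the log2 scale, and the 75th percentile of each array was set to 0. Testing covered the 28367 of 41174 probes (14226 genes) that were detected, as well above background, on 3 or more arrays. Symbols came from matching RefSeq accessions to GRCm38.p6, for 26918 probes. Detection by this flag covered 61.4% to 71.4% of probes per array. Precision is limited by how many arrays there are. Nothing in the labels ties more than 1 array to a mouse.

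Groups followed the labels. All 15 arrays entered a single limma 3.58.1 fit (R 4.3.3) with 4 groups and the trial as a term, and Benjamini-Hochberg adjustment ran over all probes at a threshold of 0.05. The methods state a paired test between treatments, which was run as an alternative. Exact permutation tests are two-sided. In simulated data with 200 probes changed by 2 on the log2 scale, the fit called 96% for the males and 96.5% for the females. That change is larger than the member responses within a sex, which were 0.25 to 1.05, and the simulated noise had the same SD in every group. The simulation therefore does not show whether changes of the members' size would be called. The members and gene lists were chosen with earlier results of these data known. Genes named are the members, in each list those past the threshold and the one with the highest mean signal, and the 5 most alike to each member, apart from some that are not reported here. Others, such as Hbb-y, Gata1, Slc25a37, Hp and Hamp, were named after their values were seen.

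Pairing by replicate number was checked as the correlation of deviations from the group means over 23820 probes. It was 0.30, 0.44 and 0.66 for female numbers 1, 2 and 3, and each of these pairs shares a slide. For male numbers 1 and 2 it was 0.33 and 0.27 in trial 1, where each pair also shares a slide. In male trial 2, which lies on slide 3 alone, it was 0.26 and 0.40. As deviations from the means of group and trial, it was -0.086 in male trial 1 and 0.0099 in male trial 2. With 2 arrays per group and trial, both pairs of a trial must give the same value there. Number and slide cannot be told apart in females or in trial 1 males.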

Additional observations from a re-analysis of the deposited data

How the results depend on the processing

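None of the 9 member probes was called under any of the 31 settings of the limma fit, in 1359 values of a log2 difference over 5 comparisons (lowest adjusted p 0.12). This includes the replicate block, under which 0 were called and the paired differences in females were 0.41 for Hba-a1 and 0.94 for Slc4a1. For the main probes, the responses within males, within females and averaged over the sexes kept their direction in all these settings. The settings include trial 1 arrays alone but no setting with trial 2 males alone. In the separate fit with a group for each trial, the response of trial 2 males was above 0 for 0 of 9 probes. Signs of the main probes changed 23 times, 22 of them in the difference between the sexes. For Alas2 it became -0.0758 with a shift by the median, -0.00089009 with the trial from the other label field and -0.34 to 0.26 when 1 array was left out. For Bpgm it became -0.039 with a shift by the median and -0.16 to 0.24 with 1 array left out. For Hba-a1 it became 0.013 with normexp correction, 0.023 with the replicate block, 0.40 in trial 1 arrays alone, 0.053 without the slide 4 arrays and -0.44 to 0.023 with 1 array left out. In trial 1 arrays alone it was 0.16 for Hbb-b1 and 0.18 for Slc4a1, and the male minus female difference of Alas2 in PBS hearts was -0.14. The cause was not tested. A shift by the median moved the median of all probes in the sex difference from -0.015 to -0.12.

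The methods' t-test, run paired as they state, called no member in either sex at its own unadjusted threshold. Run unpaired, it called Slc4a1 in females and no other member, and none after adjustment. The same unpaired test called 2351 of the 28367 probes in females before adjustment, so the call of Slc4a1 is not a result about the members. Counts of the limma fit over all probes, 314 in males, 215 in females, 39 for the sex difference, 750 for the mean of the sexes and 131 between PBS hearts, ran over the alternatives from 43 to 667, 21 to 517, 0 to 73, 111 to 1507 and 21 to 326. The slide 4 setting and the fit with a group for each trial were chosen after seeing the data.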

Other observations

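The PBS hearts of males were close to each other in every member, within a 1.18-fold to 1.36-fold range for the main probes, whereas the 4 male meth hearts covered 2.40-fold (Bpgm) to 4.64-fold (Slc4a1). No group of 4 hearts held a value for a member probe far enough from the others to be set apart by Dixon's test, among 27 groups tested.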
